A study of Mus musculus with 8 samples.

Results

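CD45+ immune cells taken from Rnls mutant and WT NIT-1 beta cell grafts on day 17 gave 8172 of the 22441 annotated cells of the series. They were chosen by library alone, as every annotated cell that came from the Rnls mutant or the WT library of day 17. The Rnls mutant library held 5482 cells, with 1932, 1625, 1379 and 546 cells from grafts 1 to 4. The WT library held 2690 cells, with 875, 350, 1112 and 353 cells from grafts 1 to 4. UMIs (unique molecular identifiers, each marking 1 captured RNA molecule) were summed per graft within each annotated cell type, and a graft entered a cell type's comparison with 10 or more cells.

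NIT-1 is a beta cell line derived from the NOD mouse, a strain that develops autoimmune diabetes. WT and Rnls mutant NIT-1 cells were placed under the skin of opposite flanks of immunodeficient NOD.scid mice, which then received splenocytes of recently diabetic NOD mice by vein 4 days later, and grafts were collected 10 or 17 days after that transfer. All grafts therefore shared the splenocyte treatment, and the labelled difference was the Rnls genotype of the beta cells. NOD.scid mice lack mature T and B cells of their own and keep myeloid and NK cells, so the T cells came with the transfer, whereas myeloid cells could be of either source. Both genotypes were placed in the same mice, but the labels do not say which grafts shared a mouse, so the tests are not paired. The 4 grafts of a genotype were marked with antibody hashtags and pooled into 1 droplet library, so genotype and library cannot be told apart on a given day, and p-values over grafts measure the spread between grafts of these libraries.

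Renalase, the product of Rnls, is a flavoprotein oxidase, and its loss in beta cells has been studied as a protection against stress and autoimmune killing. In islet autoimmunity, CD4 T cells help and instruct other cells, CD8 T cells kill beta cells with granzymes and perforin, and regulatory T cells (Treg) hold both back. Macrophages and dendritic cells (DC) take up debris and present antigen on MHC molecules, monocytes replace macrophages, and neutrophils release the alarmins S100a8 and S100a9. The comparison asks whether these populations differed between grafts of Rnls mutant and WT beta cells.

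The genotype itself could not be read from these cells, because Rnls was edited only in the beta cells, which the CD45 sort removes, and Rnls was not analysed here. Insulin transcripts were nearly absent: Ins1 had no UMI in any cell and Ins2 had one in 2 of 5482 mutant cells and 0 of 2690 WT cells. Sequencing depth differed between the libraries, with a median of 3083 UMIs per cell in mutant grafts and 5902 in WT grafts, and WT was deeper in each of the 9 compared types. Only 2 cell barcodes were shared by the libraries. WT graft 3 stood apart with 79.6% macrophages. The annotated types carried their markers: 8 of 9 macrophage, 6 of 7 monocyte and 7 of 9 DC markers were highest in the type they mark, and all 6 markers of CD4 T cells, CD8 T cells and Treg ranked among the top 3 types. Granulocytes were led by the neutrophil markers, with 5 of 8 markers highest there and the basophil and mast cell genes Mcpt8, Cpa3 and Ms4a2 at 0. The label Stem-Progenitor was borne out by few of its markers, as described with those cells.

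No cell type passed the test for a different share of mutant and WT grafts. Macrophages were the largest population, at 61.0%, 65.5%, 60.4% and 57.7% of cells in mutant grafts 1 to 4 and 29.9%, 30.6%, 79.6% and 55.5% in WT grafts 1 to 4. The mutant grafts lay close together and the WT grafts spread on both sides of them. The means were 61.1% ± 3.23 (SD, n = 4) and 48.9% ± 23.7 (SD, n = 4), a difference of 12.2 percentage points (two-sided exact permutation test, p = 0.314, adjusted over 12 types p = 0.814). Without WT graft 3 the difference was 22.5 points, and every mutant graft lay above every remaining WT graft.

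T cell shares had close means, and the SD over grafts was smaller in mutant than in WT grafts. CD8 T cells made up 7.54% ± 0.268 (SD, n = 4) of mutant grafts and 7.56% ± 4.74 (SD, n = 4) of WT grafts. CD4 T cells made up 16.3% ± 3.75 against 18.4% ± 10.96, and Treg 1.85% ± 0.806 against 2.36% ± 1.26 (SD, n = 4 each). Among myeloid cells, the means were 3.04% against 4.57% for DC, 2.29% against 4.35% for monocytes and 1.75% against 2.20% for granulocytes. The adjusted p of the exact permutation test was 0.814 or more for every type. The 4 against 4 design gives no p below 0.0286.

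**Figure D1:**
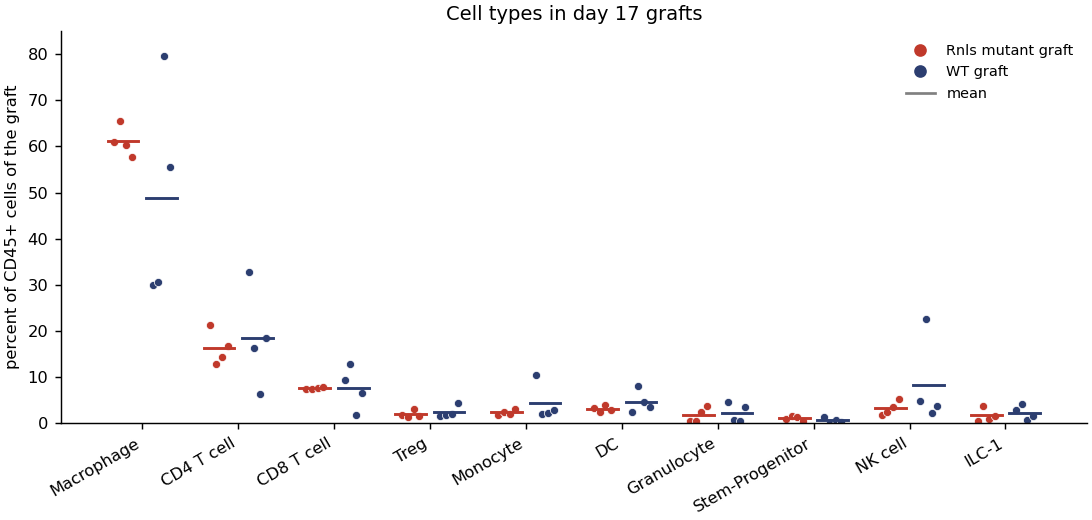
Share of each annotated cell type among the CD45+ cells of each day 17 graft, in percent; points are grafts (red Rnls mutant, blue WT) and bars are means of 4 grafts. The 4 mutant grafts sit between 57.7% and 65.5% macrophages, whereas WT grafts range from 29.9% to 79.6%.

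Within the cell types, the composition by the authors' clusters was compared for 21 clusters. One CD8 T cell cluster, led by Odc1, Ramp3, Lef1 and Satb1, of which Lef1 and Satb1 are transcription factors of naive and early memory T cells, held 70.6%, 68.6%, 69.5% and 67.4% of CD8 T cells in mutant grafts 1 to 4. The same cluster held 48.1%, 64.4%, 61.1% and 43.5% in WT grafts 1 to 4. The groups did not overlap (69.1% ± 1.35 against 54.3% ± 10.1, SD, n = 4 each, exact permutation p = 0.0286, the smallest possible), but the difference did not pass adjustment over 21 clusters (p = 0.6). The other 20 clusters had an exact p of 0.171 or more. In macrophages the cluster led by Apoe, Ccl8 and Selenop held 42.2% ± 12.8 of mutant and 28.6% ± 11.2 of WT cells (SD, n = 4 each, exact p = 0.171), and the one led by Fn1, Lyz1 and Arg1 held 8.46% ± 4.03 and 9.59% ± 10.4 (exact p = 0.8286).

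CD4 T cells had the most genes called among the compared types, and the leading ones are genes that T cells are not known for. Of 7858 genes tested, 33 rose in mutant grafts (0.42% of those tested) and 1 fell (0.0127%), by edgeR's quasi-likelihood test at an adjusted p under 0.05. The first of them was Ccl8, a chemokine made by macrophages and encoded at 82115185-82116799 on the plus strand of chromosome 11 (GRCm38). In counts per 1000000 UMIs (CPM), Ccl8 stood at 513, 620, 546 and 586 in mutant grafts 1 to 4 and at 125, 107, 54.0 and 87.6 in WT grafts 1 to 4. All mutant grafts were far above all WT grafts, with a log2 difference of 2.58 ± 0.17 (SE, adjusted p = 2.76e-09, edgeR).

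The others that led the list were class II antigen presentation and macrophage genes. H2-Aa, the alpha chain of an MHC class II molecule, stood at 197, 245, 272 and 265 CPM in mutant grafts and 60.6, 57.7, 50.0 and 70.8 CPM in WT grafts, a log2 difference of 2.05 ± 0.16 (SE, adjusted p = 5e-08, edgeR). Lyz2, the lysozyme of myeloid cells, stood at 575, 653, 546 and 730 CPM against 192, 173, 150 and 243 CPM (log2 1.76 ± 0.16, SE, adjusted p = 2.53e-07, edgeR). C1qa, a chain of complement C1q, stood at 96.5, 104, 126 and 97.6 CPM against 25.3, 41.2, 26.0 and 33.7 CPM (log2 1.91 ± 0.17, SE, adjusted p = 2.79e-07, edgeR). In each of these genes the 4 mutant grafts lay above the 4 WT grafts. Apoe, a lipid carrier that macrophages secrete, and H2-Ab1, the partner chain of H2-Aa, differed as much (log2 2.02 ± 0.19 and 2.08 ± 0.20, SE). Coordinates on GRCm38 were 19696109-19699188 on the minus strand of chromosome 7 for Apoe, 136895917-136898803 on the minus strand of chromosome 4 for C1qa, 34282744-34287823 on the minus strand of chromosome 17 for H2-Aa, and 117277331-117282321 on the minus strand of chromosome 10 for Lyz2.

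Of the 33 genes that rose in CD4 T cells, 27 had a level in day 17 macrophages over 5 times their level in the CD4 T cells, compared with 3.27% of all genes tested in both types. In the macrophages themselves these 27 genes had a median log2 difference of 0.16, from -0.36 to 0.51, and none was called there. The 6 that remained, listed after their values were seen, were Nsa2, Zfp62, Gm10076, Rpl35, Foxp4 and Gm9844. Nsa2, a factor of ribosome assembly, rose by log2 0.45 ± 0.09 (SE, adjusted p = 0.0157, edgeR), and Foxp4, a forkhead transcription factor, by 0.75 ± 0.16 (SE, adjusted p = 0.0311, edgeR). Gm20186, a noncoding RNA at 18845910-18848207 on chromosome 6, was the gene that fell, from 46.0, 57.7, 64.0 and 53.9 CPM in WT grafts to 23.9, 35.2, 16.01 and 18.6 CPM in mutant grafts (log2 -1.11 ± 0.24, SE, adjusted p = 0.0311, edgeR). With single grafts left out, the call of Gm20186 was lost for 6 of the 8 grafts (mutant grafts 1, 3 and 4 and WT grafts 2, 3 and 4), that of Foxp4 for 5 (mutant grafts 1, 2 and 4 and WT grafts 1 and 2) and that of Rpl35 for 4 (mutant grafts 1, 2 and 4 and WT graft 1), with adjusted p from 0.0582 to 0.221. With day 17 fitted alone the calls of Nsa2, Rpl35, Foxp4 and Gm20186 were all lost (adjusted p = 0.343, 0.357, 0.305 and 0.121, edgeR). The same calls were lost without the cells that held a UMI of a macrophage marker (0.116, 0.348, 0.199 and 0.353). Nsa2 also lost its call without the filter on low counts (0.0507).

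The 9 macrophage markers, among them C1qa, C1qb, C1qc, Csf1r and Apoe, moved with these calls as a sum. Of the 6 markers tested in CD4 T cells 4 are themselves among the calls, so the sum gives no separate support. The summed level of the 9 markers in CD4 T cells was 442 to 497 CPM in mutant grafts and 113 to 136 CPM in WT grafts. None of the 5 named was at 0 in every graft. That sum equalled 2.34% to 5.58% of the level in the macrophages of the same graft in mutant grafts, and 0.683% to 2.099% in WT grafts. A UMI of at least 1 marker was held by 58.5% to 65.1% of CD4 T cells in mutant grafts and 36.2% to 44.9% in WT grafts, although the WT cells were deeper (median 4337 UMIs against 2298). Without the cells that held such a UMI, 12 genes were called, all of them among the 34, with Ccl8, H2-Aa and Lyz2 still called. The removal sets the markers themselves to 0, so the 4 markers among the 34 lost their calls by design. Whether these transcripts were made by the T cells or came from other cells was not tested.

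Genes that CD4 T cells are known for did not pass the test with the filter on low counts. Of 9 cytokine, trafficking and checkpoint genes fixed for this type, 8 were tested and none was called. Ifng, the macrophage-activating cytokine, stood at 195, 303, 264 and 465 CPM in mutant grafts and at 1069, 227, 1617 and 162 CPM in WT grafts. WT grafts 1 and 3 were high and the other grafts of both genotypes overlapped (log2 -1.41 ± 0.49, SE, adjusted p = 0.339, edgeR, and -0.90 without WT graft 3). Il21, a helper cytokine that sustains CD8 T cells, had 10.4 to 36.0 CPM against 8.25 to 116 CPM (log2 -1.35 ± 0.49, SE, adjusted p = 0.373, edgeR). Tcf7 and Klf2, transcription factors of resting T cells, and Cxcr6, a tissue-homing receptor, had log2 differences of 0.43, 0.14 and -0.32. Junb, a subunit of the AP-1 factor, had 1037 to 1571 CPM against 1642 to 1924 CPM with no overlap, and Foxo1, a quiescence factor, 148 to 246 CPM against 121 to 157 CPM, and neither passed (adjusted p = 0.129 and 0.208, edgeR). Without that filter Ifng, Il21, Btla, Lag3 and Junb were called lower, with adjusted p of 3.61e-23, 0.000726, 0.0046, 0.0125 and 0.0387 by edgeR. Btg1, Egr3 and Ifitm3 were called higher in that setting (adjusted p = 0.00735, 0.0304 and 0.0046, edgeR), where 65 genes in all were higher and 59 lower. The log2 difference of Ifng was then -1.42 with an SE of 0.13, below the 0.49 with the filter, although its grafts overlap as before. The p-value of Ifng without the filter therefore does not carry the full spread between grafts. Junb was also called without mutant graft 2 and Foxo1 without mutant graft 3 (adjusted p = 0.0387 and 0.043, edgeR).

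Read list by list, most tested members of the interferon gamma response and glycolysis lists lay below 0 in mutant CD4 T cells. Of 21 tested genes of the interferon gamma response, 7 had an unadjusted p under 0.05 and lay lower, where 4.33% of all genes did, and the median log2 difference was -0.41 against -0.0028 over all genes. The chemokine Cxcl10 (19.3, 33.2, 66.1 and 23.2 CPM in mutant grafts, 159, 12.4, 82.1 and 165 CPM in WT grafts) was among them. Of 18 type I interferon-stimulated genes, 2 lay higher and 2 lower at that threshold, with a median of -0.072. Of 25 glycolysis and hypoxia genes, 7 lay lower at that threshold and 2 were above 0 (median -0.53). In that list Pfkp, a phosphofructokinase, had log2 -0.63 ± 0.22 and Eno1, an enolase, -0.89 ± 0.36, the latter with WT graft 3 alone at 314 CPM and a value of -0.10 without that graft. Among memory and trafficking genes 3 of 22 lay higher and 1 lower, where 4.54% of all genes lay higher, and S phase genes had 0 of 17 past the threshold in either direction. Inhibitory receptors had 2 of 15 lower, Btla and Lag3 (log2 -0.93 ± 0.31 and -1.29 ± 0.51, SE). None of these genes passed adjustment, so none is counted as changed. Without the filter on low counts Cxcl10, Pfkp and Eno1 were also called (adjusted p = 3.78e-13, 0.0294 and 0.000504, edgeR). The SE of Pfkp and Eno1 was then 0.16 and 0.18, below the 0.22 and 0.36 with the filter.

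CD8 T cells showed the same leading genes. Of 6379 genes tested, 22 rose (0.345%) and 2 fell (0.0314%) by edgeR at an adjusted p under 0.05. Ccl8 stood at 750, 554, 596 and 775 CPM in mutant grafts and 118, 80.0, 165 and 99.9 CPM in WT grafts (log2 2.60 ± 0.20, SE, adjusted p = 1.02e-09, edgeR). H2-Ab1 stood at 268, 256, 280 and 354 CPM against 71.2, 40.0, 41.3 and 89.9 CPM (log2 2.23 ± 0.22, SE, adjusted p = 1.45e-07, edgeR). Both genes separated the genotypes in every graft, as did H2-Aa, Lyz2 and Apoe (log2 2.04, 1.43 and 1.93). Of the 22, 15 had a macrophage level over 5 times the CD8 T cell level, against 2.61% of all genes. The marker sum was 438 to 662 CPM in mutant and 130 to 192 CPM in WT grafts. The 4 markers tested in CD8 T cells are all among the 22, so the sum gives no separate support. Without the cells holding a marker UMI 8 genes were called, 7 of them among the 24, and the 4 markers among the 24 lost their calls by design. The other called gene was Junb, lower in mutant grafts (log2 -0.89, adjusted p = 0.0277, edgeR). Junb was not called in the main fit, but was by DESeq2 (0.0458), and by edgeR without the filter on low counts (0.00558) and without WT graft 2 (0.00566).

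The genes that fell in CD8 T cells were Ubb and Gtf2b. Ubb, a polyubiquitin gene induced by stress (chromosome 11, 62551171-62553213, plus strand, GRCm38), stood at 460, 562, 478 and 498 CPM in mutant grafts and 774, 685, 1033 and 829 CPM in WT grafts (log2 -0.67 ± 0.13, SE, adjusted p = 0.00809, edgeR). Gtf2b, the general transcription factor TFIIB (chromosome 3, 142765045-142783606, plus strand), stood at 64.0, 71.1, 71.0 and 77.5 CPM against 142, 160, 165 and 120 CPM (log2 -1.04 ± 0.22, SE, adjusted p = 0.0198, edgeR). Neither gene overlapped between genotypes. Without mutant graft 1 the count of called genes fell to 11 and both calls were lost (Ubb adjusted p = 0.0894, edgeR), and the call of Gtf2b was also lost without mutant graft 2, WT graft 1 or WT graft 2 (adjusted p up to 0.130). Gm42418, which rose by log2 0.93 ± 0.12 (SE, adjusted p = 1.18e-05, edgeR), lies at 39846958-39848788 on chromosome 17 and overlaps AY036118 on the opposite strand, and it is known to collect ribosomal RNA reads, so its level is uncertain as a gene. Its call was lost without the cells holding a macrophage marker UMI (adjusted p = 0.0631, edgeR). The other 5 genes without a high macrophage level, named after their values were seen, were Gm10076, Crip1, Rpl35, Tnfaip8 and Rps29. None of these 5 was called without mutant graft 1 or without the cells holding a macrophage marker UMI.

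Killing and exhaustion genes of CD8 T cells were not called with the filter on low counts and all grafts. All 10 genes fixed for this type were tested, and 8 of them lay below 0. Gzmb, a granzyme that enters target cells, stood at 564, 544, 458 and 542 CPM in mutant grafts and at 455, 405, 2169 and 1508 CPM in WT grafts. WT grafts 3 and 4 were high and WT grafts 1 and 2 lay below every mutant graft (log2 -0.93 ± 0.31, SE, adjusted p = 0.312, edgeR). Prf1, the pore former perforin, had 128 to 210 CPM against 80.0 to 423 CPM (log2 -0.64 ± 0.31, SE), and Ifng 146 to 332 CPM against 120 to 785 CPM (log2 -0.91 ± 0.33, SE). Gzmk and Ccl5, a granzyme and a chemokine of memory CD8 T cells, had log2 differences of -0.43 and -0.23, and Tcf7 0.38. With single grafts left out, Gzmb ranged from -1.24 to -0.38, the latter without WT graft 3, and was called without WT graft 1 or WT graft 2 (adjusted p = 0.0395 and 0.0199, edgeR). Ifng was called without WT graft 2 (-1.27, adjusted p = 0.00816) and stood at -0.61 without WT graft 3. Without the filter on low counts both were called (adjusted p = 3.6e-07 and 0.000421, edgeR), with an SE of 0.14 and 0.17, below the 0.31 and 0.33 with the filter. Fos was called higher in that setting (log2 1.34, adjusted p = 0.00156, edgeR), where 35 genes in all were higher and 13 lower.

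Checkpoint genes mostly overlapped between genotypes too, with 1 of 16 inhibitory receptor and exhaustion genes wholly lower in mutant grafts, where 2.07% of all genes were. Pdcd1, which encodes PD-1, stood at 107, 107, 154 and 55.4 CPM in mutant and 214, 80.0, 72.3 and 120 CPM in WT grafts (log2 -0.25 ± 0.46, SE, adjusted p = 0.952, edgeR), and without WT graft 1 the value was 0.41. Tox, a driver of exhaustion, had log2 -0.35 ± 0.35 and, without WT graft 1, 0.19. Of 16 inhibitory receptor and exhaustion genes 4 lay lower at an unadjusted p under 0.05, where 3.72% of all genes did, and 1 lay higher, where 4.8% did. The 4 were Btla, Lag3 (27.4, 14.2, 31.6 and 0 CPM in mutant grafts, 71.2, 30.0, 103 and 59.9 CPM in WT grafts), Tigit (log2 -1.08 ± 0.32, SE) and Nr4a2 (log2 -0.66 ± 0.19, SE), and the one that lay higher was Nr4a3. CD8 T cells of mutant graft 4 held 90328 UMIs in all, so the 0 of Lag3 there is a weak bound. Of 23 cytotoxicity and effector genes 4 lay lower, Gzmb, Prf1, Ifng and Ccl5, and 1 lay higher, Klrg1, a receptor of effector cells (log2 0.85 ± 0.29, SE). Ifitm3, an interferon-induced membrane protein, had 113, 114, 114 and 88.6 CPM against 52.7, 5.00, 62.0 and 39.9 CPM, with no overlap and an adjusted p of 0.105 by edgeR, 0.0099 by DESeq2 and 0.000238 without the filter. Nr4a2 was called without WT graft 4 and without the filter (adjusted p = 0.0332 and 0.0406, edgeR).

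**Figure D2:**
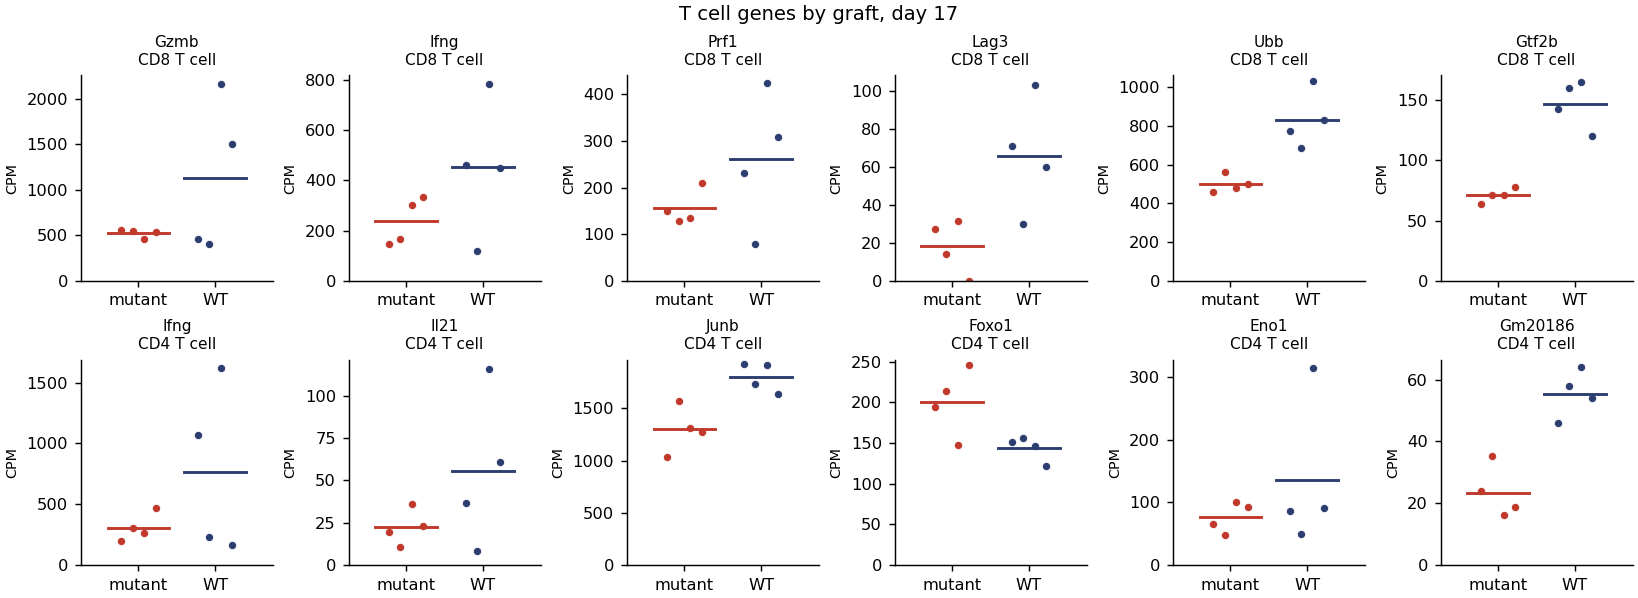
CPM per graft of named genes in CD4 and CD8 T cells of day 17 grafts; each point is 1 graft (red Rnls mutant, blue WT), bars are means of 4 grafts, and each axis starts at 0. Ubb and Gtf2b in CD8 T cells separate the genotypes, whereas Ifng and Gzmb are high in some WT grafts and not in the others.

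Ccl8 was the transcript that differed in most populations. It was called in 7 of the 9 compared types, although the calls in granulocytes and ILC-1 were lost without some single grafts and with the hashtag number as a block, with log2 differences from 2.39 to 3.46, and not in monocytes (1.13 ± 0.38, SE, adjusted p = 0.909, edgeR) or macrophages (0.51 ± 0.33, SE, adjusted p = 0.864, edgeR). Its level was highest in macrophages, at 5483, 4012, 6700 and 6006 CPM in mutant grafts and 4918, 3368, 3147 and 4224 CPM in WT grafts. The level in CD4 T cells was 8.16% to 15.4% of the macrophage level in the same graft for mutant grafts and 1.72% to 3.18% for WT grafts, and in DC 2.84% to 5.30% against 0.450% to 1.19%. The macrophage marker sum showed the same order in Treg (347 to 519 CPM against 75.1 to 139 CPM), granulocytes (856 to 1082 CPM against 302 to 366 CPM) and NK cells (380 to 535 CPM against 86.8 to 180 CPM), while DC (277 to 437 CPM against 136 to 296 CPM), monocytes (1444 to 2726 CPM against 1359 to 2026 CPM) and macrophages overlapped. These types share a droplet library, and the part of free RNA or of cells captured together in these values was not tested.

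**Figure D3:**
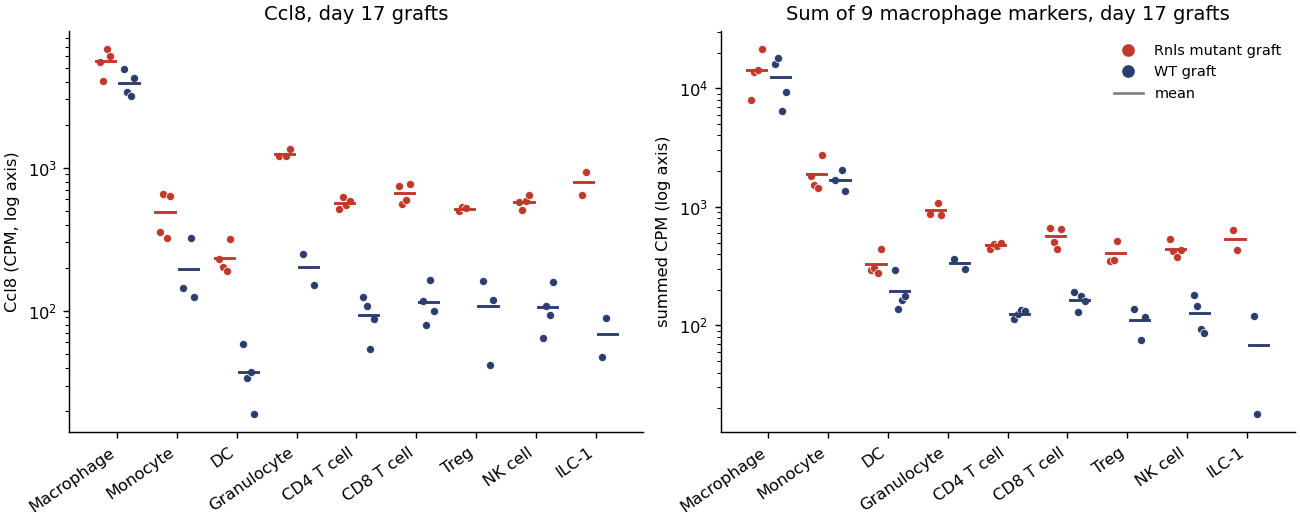
CPM (log axis) of Ccl8 (left) and of the sum of 9 macrophage markers (right) per graft in the compared cell types on day 17; red points are Rnls mutant grafts, blue points WT grafts, bars are means. In CD4 T cells Ccl8 lies between 513 and 620 CPM in mutant and between 54.0 and 125 CPM in WT grafts, whereas macrophages overlap.

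Treg were compared over 3 grafts of each genotype. Ccl8 was the single gene called of 2331 tested (0.0429%), at 497, 529 and 519 CPM in mutant grafts 1 to 3 and 162, 41.7 and 118 CPM in WT grafts 1, 3 and 4 (log2 2.54 ± 0.39, SE, adjusted p = 0.00138, edgeR). Without WT graft 1, 3 or 4 the count of called genes was 10, 3 and 6. Foxp3, the factor that defines Treg, stood at 277, 333 and 326 CPM against 162, 400 and 296 CPM (log2 0.0087 ± 0.29, SE). Il2ra, the high-affinity IL-2 receptor chain, and Ikzf2, which encodes Helios, had log2 -0.39 ± 0.36 and 0.32 ± 0.16. Of 18 Treg genes, 3 lay lower at an unadjusted p under 0.05, where 4.46% of all genes did. They were Areg, a tissue-repair growth factor, and the TNF receptors Tnfrsf4 and Tnfrsf18 (log2 -1.16, -0.56 and -0.47), none of them called with all 6 grafts. Without WT graft 1 Areg and Tnfrsf4 were called (adjusted p = 0.0303 and 0.0244, edgeR), and Areg also without the filter on low counts (0.00357) and with 20 cells or more per graft (0.000593). Of 18 glycolysis and hypoxia genes 2 were above 0, and the median was -0.55 against -0.0073 over all genes.

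Macrophages, the type with the most cells and the most UMIs in all, had no gene called. Of 9331 genes tested 0 passed in either direction (0%) by edgeR, while 571 had an unadjusted p under 0.05 and DESeq2 called 13. All 13 genes fixed for this type were tested. Cd274, which encodes PD-L1, stood at 381, 232, 311 and 194 CPM in mutant grafts and 284, 155, 409 and 252 CPM in WT grafts (log2 0.027 ± 0.22, SE). H2-Aa (log2 0.19 ± 0.12, SE), C1qa (0.17 ± 0.35, SE) and Apoe (0.28 ± 0.67, SE) were near 0 as well, and the 25 genes of resident macrophages and C1q had a median of 0.09.

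Polarization genes depended on single grafts. Arg1, the arginase of alternatively activated macrophages, stood at 90.3, 38.1, 142 and 24.7 CPM in mutant grafts and at 2.08, 1.16, 276 and 39.7 CPM in WT grafts. Its log2 difference was -0.22 ± 0.85 (SE) with all grafts and 2.28 without WT graft 3, the graft rich in macrophages. Nos2, the inducible nitric oxide synthase, moved from -1.08 ± 0.59 (SE) to 0.07 without that graft. Spp1, which encodes osteopontin, had log2 1.50 ± 0.99 (SE) through mutant graft 4 alone (234 CPM, against 5.98 to 15.0 CPM in the other mutant grafts), and -1.01 without it.

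Other macrophage genes differed in the same direction in most grafts without passing the test. Cxcl9, an interferon gamma-induced chemokine that attracts T cells, stood at 259, 190, 486 and 212 CPM in mutant grafts and 936, 774, 283 and 506 CPM in WT grafts (log2 -1.11 ± 0.36, SE, adjusted p = 0.737, edgeR). Cd36, a scavenger receptor for oxidized lipid, stood at 114, 131, 119 and 92.9 CPM against 164, 484, 311 and 160 CPM, with no overlap (log2 -1.25 ± 0.32, SE, adjusted p = 0.639, edgeR). Isg15, a ubiquitin-like interferon product, did not overlap either, at 36.7 to 47.2 CPM against 63.0 to 150 CPM (log2 -0.98 ± 0.39, SE). Ccr1, a receptor for inflammatory chemokines, had 49.5 to 72.8 CPM against 70.5 to 142 CPM (log2 -0.65 ± 0.18, SE).

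In macrophages, antioxidant genes lay mostly lower in mutant grafts without passing adjustment. Of 22 oxidative stress and iron genes, 6 lay lower at an unadjusted p under 0.05, where 3.74% of all genes did, and 4 were above 0 (median -0.31 against -0.012 over all genes). Gclc, the catalytic subunit for glutathione synthesis, stood at 42.5, 48.5, 45.2 and 37.5 CPM in mutant grafts and 73.9, 76.3, 61.5 and 49.1 CPM in WT grafts, with no overlap (log2 -0.54 ± 0.16, SE, adjusted p = 0.727, edgeR). Srxn1, Gsr and Txnrd1, which reduce oxidized thiols, had log2 differences of -0.74 ± 0.19, -0.63 ± 0.17 and -0.56 ± 0.21 (SE), each with WT graft 4 among the mutant values. Of 15 classical monocyte genes 2 were above 0 (median -0.57), among them Ms4a4c and Plac8 (log2 -0.99 and -0.83). In the other direction, where 2.38% of all genes had an unadjusted p under 0.05, stood Hk2, a hexokinase (248 to 331 CPM against 136 to 260 CPM, log2 0.60 ± 0.16, SE, adjusted p = 0.0232 by DESeq2), and H2-K1, an MHC class I heavy chain (2206 to 2342 CPM against 1376 to 2056 CPM, log2 0.32 ± 0.12, SE).

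Monocytes of 4 mutant and 3 WT grafts were compared, since WT graft 2 had under 10, and no gene of 8092 was called (0%) by edgeR, with 144 higher and 266 lower at an unadjusted p under 0.05 and 0 called by DESeq2. Without WT graft 1, 3 or 4, which leaves 2 WT grafts, 3, 1 and 1 genes were called. The 8 genes fixed for this type had adjusted p-values of 0.96 or more. Ly6c2, a marker of classical monocytes, stood at 253, 194, 468 and 48.7 CPM in mutant grafts and at 188, 383 and 1001 CPM in WT grafts 1, 3 and 4 (log2 -0.78 ± 0.47, SE). Hmox1, the heme-degrading enzyme, stood at 86.9, 77.8, 78.1 and 48.7 CPM against 481, 467 and 71.5 CPM, so that 2 WT grafts were high and the third lay among the mutant grafts (log2 -2.35 ± 0.49, SE, adjusted p = 0.647, edgeR). Without WT graft 4 Hmox1 was called (adjusted p = 0.0116, edgeR), and without the filter on low counts Hmox1, Gclm and Pgam1 were (2.05e-10, 0.0365 and 0.0169). The SE of Hmox1 was 0.32 without the filter, below the 0.49 with it, although its grafts overlap. Txnrd1 did not overlap (134, 204, 215 and 170 CPM against 322, 455 and 250 CPM, log2 -1.02 ± 0.25, SE), nor did Sod2, the mitochondrial superoxide dismutase (340 to 522 CPM against 539 to 1015 CPM).

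The oxidative stress list and the glycolysis list leaned lower in monocytes too. At an unadjusted p under 0.05, 8 of 22 oxidative stress and iron genes lay lower, where 3.29% of all genes did (median -0.43 against -0.065 over all genes), and Gclm, the modifier subunit for glutathione synthesis, was one of them (log2 -1.87 ± 0.60, SE). Of 25 glycolysis and hypoxia genes 5 lay lower and 1 higher, where 1.78% of all genes lay higher, and the median was -0.62. Pgam1, a phosphoglycerate mutase of that list, had log2 -1.19 ± 0.49 (SE), and 0.15 without WT graft 3. Thbs1, which encodes thrombospondin 1, stood at 194 to 468 CPM in mutant and 132 to 193 CPM in WT grafts (log2 0.97 ± 0.28, SE, adjusted p = 0.851, edgeR). Nonclassical monocyte genes had 0 of 15 past the threshold and a median of 0.18. Depth was lower in mutant monocytes too (median 2785 UMIs per cell against 4845).

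DC differed in Ccl8 alone, the single gene of 5700 called (0.0175%). Ccl8 stood at 229, 202, 190 and 318 CPM in mutant grafts and 58.3, 34.1, 37.3 and 19.0 CPM in WT grafts (log2 2.53 ± 0.32, SE, adjusted p = 0.000886, edgeR), and 2 genes were called without mutant graft 3. Xcr1, a marker of cross-presenting DC, had 177 to 282 CPM against 109 to 357 CPM, and Flt3, the growth factor receptor of DC, 127 to 159 CPM against 101 to 155 CPM. Ccr7, the receptor by which DC travel to lymph nodes, stood at 327, 185, 214 and 186 CPM against 247, 558, 55.9 and 538 CPM (log2 -0.54 ± 0.52, SE). Ccl22, a chemokine of mature DC, had log2 1.24 ± 0.69 (SE). These 4 genes overlapped between genotypes.

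Interferon-stimulated genes lay lower in mutant DC without passing the test. Of 21 type I interferon-stimulated genes 4 were lower at an unadjusted p under 0.05, where 3.35% of all genes were, and 4 were above 0 (median -0.42 against -0.020 over all genes). Oasl1 was read at 0, 12.6, 13.2 and 0 CPM in mutant grafts and 0, 55.8, 48.5 and 12.7 CPM in WT grafts. DC held 75467 UMIs in mutant graft 4 and 157851 in WT graft 4, so the low Oasl1 values rest on few UMIs and a 0 is a weak bound. Of 26 interferon gamma response genes 5 lay lower, among them Gbp2, a GTPase of host defence, at 172, 75.8, 135 and 133 CPM against 238, 233, 350 and 152 CPM (log2 -0.98 ± 0.26, SE, adjusted p = 0.585, edgeR). Cd74, the invariant chain of MHC class II, did not overlap (13662 to 15605 CPM against 15732 to 19540 CPM, log2 -0.34 ± 0.12, SE), whereas H2-Aa had a log2 difference of -0.09 ± 0.12 (SE). The glycolysis genes Eno1 and Slc16a3, a lactate exporter, had log2 -0.94 and -1.61. Without the filter on low counts Gbp2, Oasl1 and Ccl22 were called (adjusted p = 0.0145, 0.00218 and 0.000378, edgeR).

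Granulocytes were few, and 3 mutant grafts (1, 3 and 4) and 2 WT grafts (1 and 4) were compared. Ccl8 was the single gene of 927 called (0.108%), at 1197, 1209 and 1345 CPM against 251 and 151 CPM (log2 2.39 ± 0.40, SE, adjusted p = 0.00852, edgeR). That call was lost without mutant graft 4, WT graft 1 or WT graft 4 (adjusted p from 0.0561 to 0.0741), and with the hashtag number as a block (0.119). S100a8 stood at 20113, 15148 and 22860 CPM in mutant grafts and 50197 and 38096 CPM in WT grafts (log2 -1.31 ± 0.34, SE, adjusted p = 0.134, edgeR). S100a9 stood at 50842, 27432 and 47105 CPM against 67774 and 65442 CPM (log2 -0.80 ± 0.37, SE), and turned to 0.011 when grafts with 1 or more cells were let in. Neither alarmin overlapped between genotypes among the grafts compared, where 7.98% of all genes lay wholly lower. Lcn2, an iron-binding granule protein, had 163 to 559 CPM against 1094 to 2616 CPM (log2 -2.42 ± 0.64, SE). S100a8, Lcn2, Retnlg and Ngp were called without the filter on low counts and with 20 cells or more per graft, and all but S100a8 without WT graft 4. The latter pair of settings leaves WT graft 1 as the only WT graft, which is assumed to vary like the others.

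Immature granule genes hung on 1 graft. Ngp, a granule protein of neutrophil precursors, was read in WT graft 1 alone (2793 CPM) and was at 0 in the 3 mutant grafts and WT graft 4, and Retnlg, a neutrophil resistin, stood at 8181 CPM in WT graft 1 and at 530 to 1117 CPM in the other 4 grafts. Of 22 neutrophil genes 6 lay lower at an unadjusted p under 0.05, where 4.42% of all genes did (median -0.29 against 0.020 over all genes). Interferon-stimulated genes lay the other way, with 14 of 17 above 0 and a median of 0.74, and 3 of 17 past that threshold where 4.75% of all genes were. Of those 17, 7 did not overlap, where 15.1% of all genes lay wholly higher in these 5 grafts. Ifitm3 stood at 1437, 2079 and 2160 CPM against 1214 and 754 CPM (log2 0.81 ± 0.36, SE, adjusted p = 0.481, edgeR), and Ifit1, an RNA-binding antiviral protein, at 319, 84.9 and 81.5 CPM against 10.5 and 0 CPM. Granulocytes held only 12529, 47134 and 24541 UMIs in these mutant grafts and 95583 and 26512 UMIs in the WT grafts. The Ifit1 values therefore rest on a few UMIs each, and the 0 is a weak bound.

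**Figure D4:**
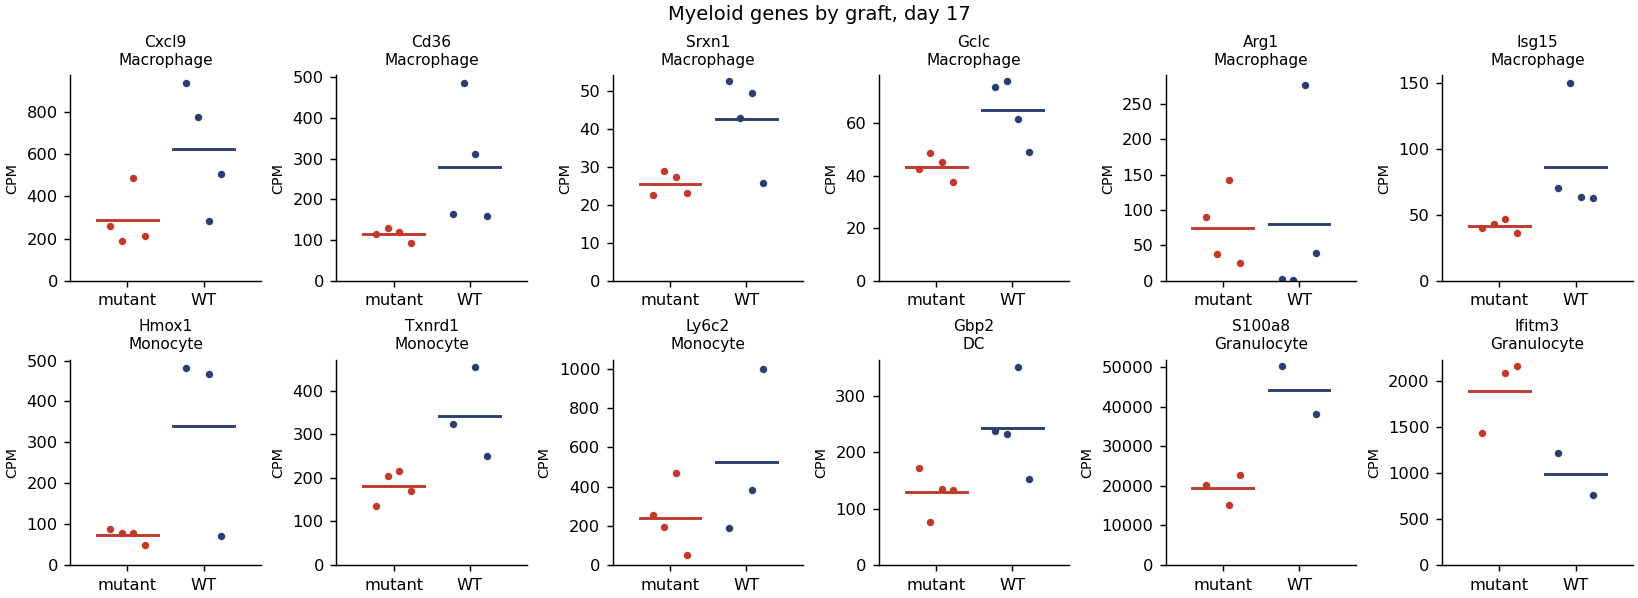
CPM per graft of named genes in macrophages, monocytes, DC and granulocytes of day 17 grafts; each point is 1 graft with 10 or more cells of the type (red Rnls mutant, blue WT), bars are means, and each axis starts at 0. Cd36, Gclc and Isg15 in macrophages do not overlap, and Arg1 in WT macrophages is high in graft 3 at 276 CPM.

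The cells annotated as Stem-Progenitor were 60 in mutant and 19 in WT grafts. Most of the stem cell markers listed were not detected, since Cd34, Flt3, Gata2 and Meis1 had no UMI in either genotype. A count of 0 allows up to 5.90 CPM of each of these genes in mutant and 10.6 CPM in WT cells, and Kit, the stem cell factor receptor, had 2 UMIs in mutant cells and 0 in WT cells. Ly6a, which encodes Sca-1 and is also made by activated T cells, went the other way, at 1133 CPM in mutant and 1457 CPM in WT cells, and stood at 735 to 1435 CPM in CD4 and CD8 T cells. They were dividing cells with T cell receptor transcripts. A Cd3 UMI was found in 59 of 60 mutant and 19 of 19 WT cells, and an Mki67 or Top2a UMI, both genes of mitosis, in 59 of 60 and 19 of 19.

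Only mutant grafts 1 to 3 and WT graft 1 held 10 or more of these cells, so no test was made and their summed levels are given with exact Poisson intervals, which cover counting error only. Mki67 stood at 619.7 CPM (95% interval 553 to 692) in mutant and 749.5 CPM (652 to 857) in WT cells, and Top2a at 1357 CPM (1258 to 1463) and 1260 CPM (1133 to 1397). Cd3e, a chain of the T cell receptor complex, stood at 789 CPM (714 to 870.0) against 538 CPM (456 to 631), Cd8a at 104 CPM (78.1 to 136) against 42.2 CPM (21.8 to 73.8), and Cd4 at 76.7 CPM (54.6 to 105) against 95.01 CPM (62.6 to 138). Cd8a rested on 53 UMIs in 22 mutant cells and 12 UMIs in 4 WT cells. Ccl8 stood at 165 CPM (132 to 205) against 38.7 CPM (19.3 to 69.3).

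NK cells had 6 genes called of 3263 (0.184%), 5 of them with a macrophage level over 5 times their own, and ILC-1, compared over 2 grafts of each genotype, had Ccl8 alone of 1770 (0.0565%). The ILC-1 call was lost for 3 of the 4 grafts left out (mutant grafts 2 and 3 and WT graft 1, adjusted p from 0.0921 to 0.146), with day 17 fitted alone (0.0586) and with the hashtag number as a block (0.99975). Over all CD45+ cells of a graft, 2 of 12560 genes were called (0.0159%), the noncoding RNAs Snhg9 (22.5, 24.2, 20.1 and 22.95 CPM against 14.7, 14.7, 12.4 and 12.6 CPM, log2 0.78 ± 0.10, SE, adjusted p = 0.00681, edgeR) and Gm10076 (227 to 259.5 CPM against 152 to 188 CPM, log2 0.53 ± 0.08, SE, adjusted p = 0.0308, edgeR). Neither was called without the filter on low counts, with day 17 fitted alone or with the hashtag number as a block (adjusted p under the block 0.0518 and 0.175), and Gm10076 lost its call for 6 of the 8 grafts left out (all but mutant graft 3 and WT graft 3, adjusted p from 0.0617 to 0.191). Without WT graft 3, the graft with the largest macrophage share, 127 genes were called. In bulk sums of this kind, fewer cells of a type and less RNA per cell cannot be told apart.

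Single genes tied to the ribosome had the same sign in every type tested, unlike the whole list of ribosomal proteins. Of that list 1 of 81 was called in CD4 T cells, 2 of 81 in CD8 T cells and 1 of 81 in NK cells, and its median log2 difference ran from -0.18 in ILC-1, with 7 of 80 above 0, to 0.70 in granulocytes, with 55 of 58 above 0. Rpl35, a protein of the large ribosomal subunit, lay above 0 in 9 of 9 types, with log2 differences from 0.17 to 1.39, and was called in CD4 and CD8 T cells (0.42 and 0.52). Rps29, of the small subunit, lay above 0 in 9 of 9 types (0.21 to 1.00) and was called in CD8 T cells and NK cells (0.47 and 0.57), the NK cell call being lost for 6 of the 8 grafts left out (all but mutant graft 4 and WT graft 4, adjusted p from 0.059 to 0.0992), without the filter (0.0789) and with day 17 alone (0.10). Nsa2 lay above 0 in 9 of 9 (0.36 to 0.73). Gm10076 lay above 0 in 8 of 8 types tested (0.23 to 0.87). The CD8 T cell calls of Rpl35, Rps29 and Gm10076 were lost without mutant graft 1 and without cells holding a macrophage marker UMI. Ubb lay below 0 in 9 of 9 types, from -0.67 to -0.18. These genes were singled out after their values were seen, all types of a genotype come from 1 library, and depth per cell moved with genotype in each.

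**Figure D5:**
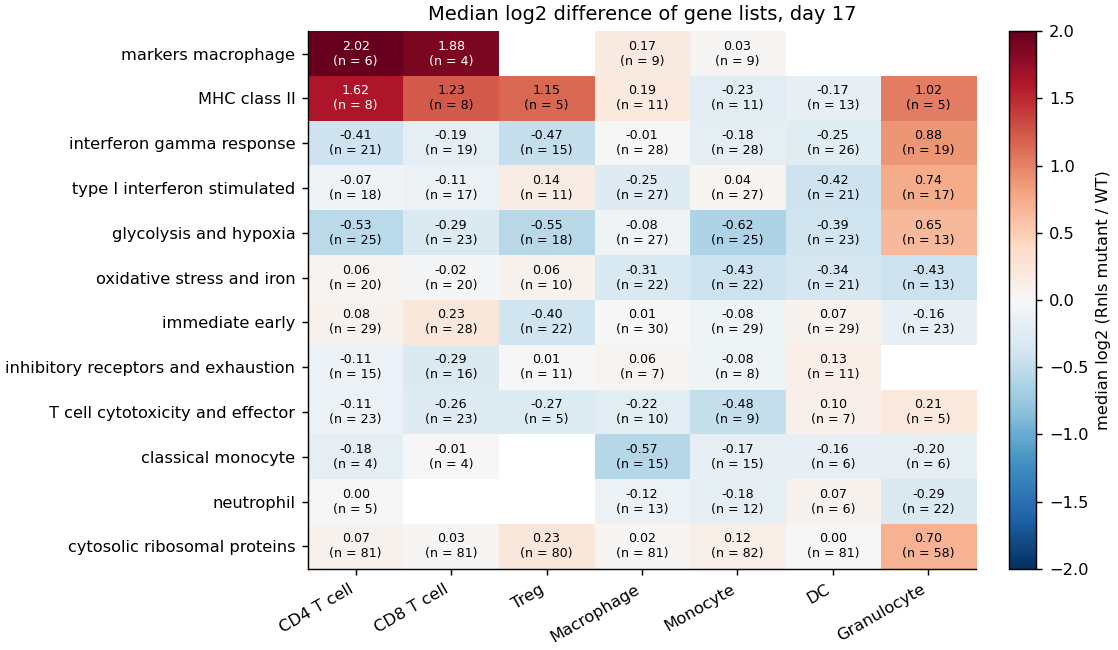
Median log2 difference (Rnls mutant over WT) of the tested members of 12 gene lists in 7 cell types on day 17, with the number of members tested (n) in each cell; lists with under 4 tested members are left blank. The macrophage marker list reads 2.02 in CD4 and 1.88 in CD8 T cells. There 4 of 6 and 4 of 4 tested markers are called genes, so these medians restate the calls. The glycolysis list reads -0.53 in CD4 T cells and -0.62 in monocytes.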

How the data were processed

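Single-cell libraries were made with the 10x 3' v3.1 chemistry and cell hashing. Per the labels and the study's methods, the authors ran Cell Ranger on mm10, filtered cells, assigned hashtags and annotated cell types; versions are not given in the sources used here. The values used were the deposited whole-number UMI counts per gene and cell, with the deposited cell types and clusters; how doublets were removed is not given in the sources used here, and none were removed again. Every deposited cell had 1001 UMIs or more. Totals per graft ran from 1742746 to 9729233 UMIs on day 17.

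UMI counts were summed per graft and cell type. The grafts of both days with 10 cells or more of the type, at most 16, were fitted together. Monocytes, Treg, granulocytes and ILC-1 had fewer than 16. The fits used edgeR 4.0.16 (R 4.3.3, filterByExpr, TMM, quasi-likelihood, Benjamini-Hochberg), and the day 17 contrast was mutant over WT. CPM used the summed UMIs of the type. Shares were tested with exact permutations over 70 assignments. Alternatives were DESeq2 1.42.0, no TMM, no filter, other cell minimums, day 17 alone, each graft left out and the hashtag number as a block; the fit without cells holding a macrophage marker UMI was chosen after seeing the data. The fits were tested on simulated data. Named genes were fixed genes per type, up to 6 called genes per direction, and up to 4 members per list by p, except where stated. Some list members are not reported here singly. The members and lists were chosen with earlier results of these data known. Coordinates are from GENCODE vM21 (GRCm38).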

Additional observations from a re-analysis of the deposited data

Results flagged for a closer look

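The differences between mutant and WT grafts on day 17 were set against those on day 10, with the difference between days tested in the same edgeR fit. In CD4 T cells the log2 difference was higher on day 17 than on day 10 by 3.64 for Ccl8, 3.26 for H2-Aa, 2.85 for Lyz2, 2.60 for C1qa, 3.82 for Apoe and 3.22 for H2-Ab1. On day 10 each of these lay below 0, from -1.80 for Apoe to -0.69 for C1qa. In CD8 T cells the same difference between days was 3.87 for Ccl8, 3.45 for H2-Ab1, 2.96 for H2-Aa, 2.60 for Lyz2, 4.12 for Apoe, 1.42 for Gm42418 and -1.19 for Gtf2b. It was 4.25 for Ccl8 in Treg, 2.83 in DC and 2.74 in granulocytes. In NK cells it was 3.34 for Ccl8, 2.99 for Apoe, 2.57 for Lyz2, 2.57 for H2-Aa and 0.86 for Rps29, and over all CD45+ cells 1.29 for Snhg9 and 1.36 for Gm10076. These are the 23 of 118 named gene values looked at whose difference between days had an adjusted p under 0.05 by edgeR, and they are listed for passing it. Each was also called on day 17, and the same day 17 values enter this contrast, so it gives no separate support. Of the 27 genes with a high macrophage level that rose in CD4 T cells on day 17, 25 lay below 0 on day 10. These 27 were picked for rising on day 17, and the share of all genes below 0 on day 10 is not given. The count is therefore not read as particular to them. The macrophage marker sum moved with these genes, since it stood at 18.9 to 37.3 CPM in mutant and 53.0 to 65.1 CPM in WT CD4 T cells on day 10. C1qa and Apoe are part of that sum, so it gives no separate support. Day and library are the same split within a genotype and cannot be told apart.

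Single grafts stood far from the other 3 of their group in 14 cases by Dixon's test at the 95% level. With 253 groups of 4 grafts looked at and about 1 in 20 marked by chance alone, 12.65 would be expected, so the number is close to what chance gives and the cases are listed as values only. Among shares these were B cells in WT graft 2 (1.14%), monocytes in WT graft 1 (10.4%), NK cells in WT graft 2 (22.6%), Treg in WT graft 4 (4.25%), and the heat shock gene-led macrophage cluster in WT graft 2 (12.2%). Among genes, WT graft 3 stood apart in CD4 T cell Eno1 (314 CPM), CD8 T cell Pfkl (72.3 CPM), macrophage Arg1 (276 CPM) and DC Xcr1 (357 CPM), and WT graft 2 in macrophage Isg15 (150.2 CPM). Among mutant grafts, graft 1 stood apart in CD8 T cell Lyz2 (759 CPM), and graft 4 in CD8 T cell Ccl5 (14558 CPM), CD8 T cell Ifitm3 (88.6 CPM) and macrophage Spp1 (234 CPM).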

How the results depend on the processing

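The leading calls kept their direction under every alternative run: Ccl8 in CD4 T cells, CD8 T cells, Treg and DC was called under each. Over named genes, 1640 alternative values kept direction and side of the threshold, 54 passed it newly, 72 no longer passed and 30 changed sign, none of the latter a called value. Where a count or sign moved, the cause was not tested, beyond the fewer grafts, cells or genes that an alternative holds.

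Counts of called genes moved as follows. Without the filter on low counts there were 124 in CD4 T cells, 48 in CD8 T cells, 40 in DC, 10 in granulocytes, 2 in ILC-1, 20 in monocytes, 16 in NK cells, 15 in Treg and 0 over all CD45+ cells. That setting gave a smaller SE for Ifng in CD4 T cells, Gzmb in CD8 T cells and Hmox1 in monocytes. Their p-values there carry less of the spread between grafts than with the filter. With day 17 fitted alone there were 22 in CD4 T cells, 15 in CD8 T cells and 0 over all CD45+ cells. DESeq2 called 30 over all CD45+ cells, 3 in DC, 2 in ILC-1, 13 in macrophages and 12 in NK cells. Without TMM there were 1 over all CD45+ cells, 2 in granulocytes, 2 in ILC-1 and 4 in Treg, and with 20 cells or more per graft 15 in granulocytes and 32 in Treg. Without cells holding a macrophage marker UMI, an alternative added after seeing the data, there were 12 in CD4 T cells, 8 in CD8 T cells and 1 in NK cells. That removal sets the markers themselves to 0, so calls of markers such as Apoe were lost by design. With 1 graft left out, counts ranged from 1 to 127 over all CD45+ cells, 11 to 24 in CD8 T cells, 1 to 2 in DC, 0 to 4 in granulocytes, 0 to 1 in ILC-1, 0 to 3 in monocytes, 3 to 7 in NK cells and 1 to 10 in Treg. ILC-1 with 20 cells per graft could not be fitted.

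Shares changed sign on the log2 scale for CD4 T cells (0.017) and CD8 T cells (0.33). With 1 graft left out, the difference in percentage points ranged from -0.20 to 0.18 for B cells, -6.25 to 2.62 for CD4 T cells, -2.01 to 1.74 for CD8 T cells, -1.08 to 0.31 for granulocytes, -0.91 to 0.12 for Treg and 5.91 to 22.5 for macrophages. Log2 differences ranged over -0.47 to 0.41 for Pdcd1 and -0.83 to 0.19 for Tox in CD8 T cells, and in macrophages over -0.16 to 0.27 for Cd274, -0.71 to 2.28 for Arg1, -0.15 to 0.70 for Apoe, -0.014 to 0.40 for C1qa, -1.01 to 2.32 for Spp1 and -1.41 to 0.069 for Nos2. They ranged over -0.61 to 0.35 for H2-Aa and -1.70 to 0.15 for Pgam1 in monocytes, and over -0.20 to 0.44 for Foxp3 and -0.64 to 0.44 for Il2ra in Treg. Other sign changes were Ly6c2 in monocytes with 20 cells or more per graft (0.042), H2-Aa in monocytes (0.11) and S100a9 in granulocytes (0.011) with 1 cell or more, Foxp3 in Treg with 20 cells (-0.33) and without TMM (-0.0059), and Pdcd1 in CD8 T cells (0.034) and Il2ra in Treg (0.37) without cells holding a marker UMI.

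The labels do not say that equal hashtag numbers mark 1 mouse, so the main fit did not take them as pairs. Deviations of same-numbered grafts correlated from 0.012 to 0.12 in CD4 T cells and 0.024 to 0.034 in CD8 T cells. They ran from -0.24 to 0.34 in macrophages and -0.11 to 0.17 over all CD45+ cells, with 2 of 4 pairs over 0.1 in each. In CD4 T cells each mutant graft correlated most with the WT graft of its number, and other numbers gave -0.13 to 0.024. In macrophages other numbers gave -0.31 to 0.29. These correlations do not settle whether equal numbers mark 1 mouse. With the hashtag number as a replicate block, 31 genes were called in CD4 T cells, 21 in CD8 T cells, 6 in NK cells, 1 in DC, 1 in Treg and 0 in granulocytes, ILC-1 and over all CD45+ cells, and Arg1 in macrophages (0.21) and Foxp3 in Treg (-0.046) changed sign. Depth limits the small types: granulocytes, monocytes, Treg and ILC-1 rest on 10 to 91 cells in each graft tested.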
